A study of Mus musculus with 18 samples.

Results

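The Ifit and Oas genes are 2 antiviral families that interferon induces, and 10 of their mouse members are described here, out of 34989 genes with a transcript in the files. The 10 genes (Ifit1, Ifit2, Ifit3, Ifit3b, Oas1a, Oas1g, Oas2, Oas3, Oasl1 and Oasl2) were chosen by name, with earlier results of these data known. The estimated counts of all transcripts of a gene were added in each library. The study sequenced total RNA from the left ventricle (LV) and right ventricle (RV) of mouse hearts that had been kept in cold preservation solution as donor hearts are, and asked how storage time and ventricle bear on gene expression. All hearts came from C57B/L6 mice that the labels give as 12 weeks old, with no sex stated, while the study's methods name both sexes. They were held in ice-cold HTK solution for 0, 4 or 8 h and then perfused ex vivo with Krebs buffer for 1 h, so the 0 h controls were perfused too. Each of the 6 groups, a ventricle at a storage time, held 3 libraries numbered 1 to 3, which makes 18 in all. No label says that the replicates are separate animals, so p-values measure the spread between these samples only.

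IFIT proteins bind viral RNA at its capped or triphosphate end or along its strand and hold back its translation. OAS enzymes sense double-stranded RNA and make short oligoadenylates, which act as second messengers, while the OAS-like proteins carry the same fold and act in part without that product. In heart muscle as in most tissues, type I interferon binds its receptor and, through JAK kinases and factors of the STAT and IRF families, turns the genes of both families on.

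Libraries held between 22552581 and 46236771 estimated counts in total. The mitochondrial share of counts was 24.07, 25.97 and 28.27% in LV at 0 h, 26.33, 26.37 and 24.9% at 4 h and 31.98, 34.42 and 33.44% at 8 h. In RV it was 22.72, 26.46 and 32.61% at 0 h, 26.13, 27.66 and 26.89% at 4 h and 34.19, 33.61 and 33.34% at 8 h. It was thus higher in every 8 h library than in every control of the same ventricle, and its part in the members' levels was not tested beyond a normalization without mitochondrial genes, which changed 0 of 60 member calls. Levels are given as CPM, counts scaled to library size after TMM normalization, which adjusts for library composition. Levels of different genes are compared only as TPM, which also corrects for transcript length. A gene was called when edgeR's quasi-likelihood test gave a Benjamini-Hochberg adjusted p under 0.1 over all genes tested and the fold change was over 1.5. Log2 fold changes are given ± their standard error (SE). Those against 0 h in a ventricle share the same 3 control libraries at 4 h and 8 h. All 10 members passed the filter on low counts in LV, in RV and over all 18 libraries. On the 0 h libraries alone, Oas3 would not have passed it in either ventricle. The families' counts in a library came to between 1501 (RV, 0 h, replicate 1) and 186822 (RV, 8 h, replicate 3).

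The ventricular label was checked against marker genes. All 6 of 6 ventricular cardiomyocyte markers were found in every library, with a summed level of 28300 to 53700 TPM and Myl2 as the most abundant (mean 10990 TPM). The sum was lower in every 8 h library than in every control of the same ventricle, at 36500 to 40000 TPM against 43800 to 53700 TPM in LV and 28300 to 34500 TPM against 42500 to 53600 TPM in RV. The 4 h libraries overlapped the controls. Atrial markers summed to 85.7 to 1200 TPM, with Nppa the most abundant and Bmp10 at 0 in 5 libraries. Summed levels ran from 133 to 270 TPM for 6 endothelial, from 274 to 605 TPM for 5 fibroblast and from 152 to 254 TPM for 4 mural markers, and in RV the endothelial and the mural sums were lower in every 4 h library than in every control. The 8 macrophage and monocyte markers summed to 88.3 to 210 TPM with C1qb the most abundant (mean 49.0 TPM). Lists of T and NK cells (0.81 to 3.71 TPM), B cells (0.244 to 1.29 TPM) and dendritic cells (0.348 to 1.19 TPM) had no gene with a mean over 1 TPM. Of the macrophage and monocyte markers 1 was called upward in LV at 8 h, 1 downward in RV at 4 h, and 3 upward and 1 downward in RV at 8 h. Of the 4 mural markers 2 were called downward in RV at 4 h and 1 at 8 h, of the 6 endothelial markers 1 downward in RV at 4 h, and of the 5 fibroblast markers 1 upward in RV at 8 h. Of the 6 ventricular cardiomyocyte markers 1 was called downward in LV at 8 h. Among markers tested, 1 of 3 for T and NK cells was called upward in RV at 4 h and 1 of 1 for dendritic cells in LV at 8 h. Between ventricles at 0 h, 1 endothelial marker was called, lower in LV.

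The 5 red cell markers, led by Hbb-bs (mean 37.5 TPM) and with Alas2 at 0 in 6 libraries, summed to 15.8, 19.0 and 12.5 TPM in LV at 0 h, 234, 34.1 and 21.6 TPM at 4 h and 491, 27.9 and 69.9 TPM at 8 h. In RV they summed to 18.5, 7.65 and 7.29 TPM at 0 h, 269, 15.9 and 16.4 TPM at 4 h and 121, 9.51 and 63.9 TPM at 8 h. Replicate 1 was the highest library of each stored group, LV stored libraries all lay above their controls and RV groups overlapped. Of these genes 2 of 4 tested were called upward in LV at 8 h and 0 of 4 in the other 3 comparisons with 0 h. Neutrophil markers differed with storage time too. Their 8 genes summed to 0.866, 1.07 and 1.49 TPM in the LV 0 h libraries, 2.73, 4.63 and 6.62 TPM after 4 h and 41.4, 9.97 and 13.0 TPM after 8 h. In RV they summed to 1.61, 0.977 and 2.22 TPM at 0 h, 3.75, 4.39 and 5.73 TPM after 4 h and 14.3, 6.18 and 12.9 TPM after 8 h. Csf3r was the most abundant (mean 2.58 TPM), while Ly6g was at 0 in 17 libraries, Ngp in 11, Retnlg in 8 and Mmp8 in 8. Each stored group lay above its controls. Of the neutrophil genes 1 of 4 and 3 of 4 tested were called upward in LV at 4 h and 8 h and 1 of 2 in RV at both times. The part of cardiomyocytes, vessel cells, red cells, macrophages and neutrophils in the Ifit and Oas levels was not tested. In bulk tissue, a change in the number of cells of a type and a change in RNA per cell cannot be told apart.

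Replicate 3 stood apart in all 4 stored groups. For all 10 members it was the highest library of its group, and its CPM exceeded the higher of the other replicates by 3.45-fold (Oas3) to 19.2-fold (Ifit2) in LV at 4 h and by 4.09-fold (Ifit1) to 8.62-fold (Ifit3b) in LV at 8 h. In RV the ratios ran from 3.58 (Oas3) to 36.4 (Ifit2) at 4 h and from 3.72 (Ifit1) to 6.6 (Oas1g) at 8 h. At 0 h the median ratio of the members was 1.005 in LV and 1.14 in RV, against medians of 5.76, 5.88, 6.73 and 5.715 in LV at 4 h and 8 h and in RV at 4 h and 8 h. Over all genes, replicate 3 exceeded both other replicates by over 2-fold for 4.05% of genes in LV at 4 h, 6.74% in LV at 8 h, 5.16% in RV at 4 h and 7.53% in RV at 8 h (1.14% and 1.77% at 0 h). The mean log2 CPM of 4 Y-linked genes was between 0.226 and 0.723 in these 4 libraries and 0.289 and 0.347 in the 0 h replicates 2, and it was between 4.69 and 5.05 in the remaining 12. Results are therefore also given with replicate 3 of 4 h and 8 h left out, a comparison chosen after the values were seen. The part of mouse sex in the members' levels was not tested beyond a fit with Y-linked expression as a covariate, in which 8 of 60 member calls were gained and 0 lost.

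**Figure D1:**
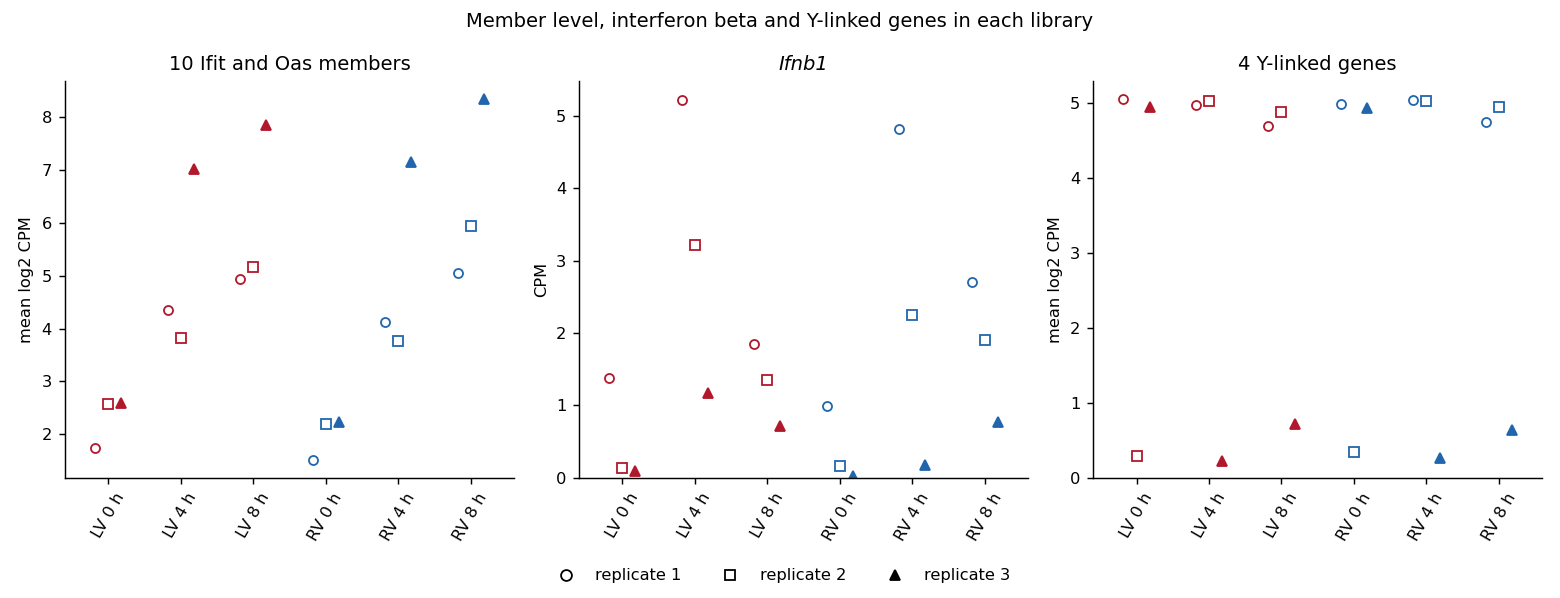
Mean log2 CPM of the 10 members, CPM of Ifnb1 and mean log2 CPM of 4 Y-linked genes in each of the 18 libraries, by ventricle and storage time, with a marker for each replicate number. In the stored groups replicate 3 had the highest member mean, the lowest Ifnb1 level and a Y-linked mean of 0.226 to 0.723.

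The first question was how many members changed with storage time in each ventricle. In LV, 2 of 10 members (Ifit1 and Oasl1) were called at 4 h, where 2.79% of all genes tested were called, and 10 of 10 at 8 h, where 6.72% were. In RV, 6 of 10 (Ifit1, Ifit3, Ifit3b, Oas1g, Oas3 and Oasl1) were called at 4 h against 10.1% of all genes, and 10 of 10 at 8 h against 18.2%. Every call was upward. The members were chosen with earlier results of these data known, so the shares beside them do not test whether they exceed other genes. Here and below, counts of called members include Oas3, which passed the filter through stored libraries and not on the 0 h libraries alone. The median log2 fold change of the 10 members was 3.57 and 4.44 in LV at 4 h and 8 h and 4.06 and 5.47 in RV, and the median over all genes tested was -0.0044, -0.017, 0.0034 and -0.072. For each of the 10 genes, all stored libraries of a ventricle lay above all of its 0 h libraries. Of all genes tested, 12.9 and 15.5% had every stored library above every control in LV at 4 h and 8 h, and 15.1 and 18.5% in the RV comparisons. At an unadjusted p under 0.05, 9, 10, 10 and 10 members passed in LV at 4 h and 8 h and in RV at 4 h and 8 h, against 15.6, 23.3, 21.5 and 30.8% of all genes. With DESeq2 the called members numbered 5, 6, 9 and 9, against 4.0, 6.57, 8.59 and 13.2% of the genes it fitted, and it gave no adjusted p for 4, 4, 1 and 1 of them. With the replicate number as a block, all 10 members were called in RV at 4 h, where 13.9% of all genes were. No label says that libraries of the same number at different storage times are linked. In RV the mean log2 CPM of the Y-linked genes in replicate 3 was 4.93 at 0 h and 0.271 at 4 h. Calls that appear only with this block, here and below, rest on that unstated link.

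Many of these calls depended on single libraries, and each library was also left out alone, in 9 fits a ventricle. In LV at 4 h, 0 members were called when any of the 3 control libraries, 4 h replicate 1, 4 h replicate 3 or 8 h replicate 2 was left out. In those fits 3.75, 0.101 and 0.29% (controls 1, 2 and 3), 0.527, 0.574 and 2.07% of all genes were called. Without 8 h replicate 3, 9 members were called, against 5.66% of all genes. In LV at 8 h, leaving out control replicate 1, 2 or 3 gave 1, 0 and 0 members (4.39, 0.959 and 1.88% of all genes), and leaving out 8 h replicate 3 gave 2 (2.83%). In RV at 4 h the count was 2, 0 and 0 without control replicate 1, 2 or 3 (9.67, 2.15 and 2.37% of all genes). It was 2 without 4 h replicate 1 (4.37%), 2 without 4 h replicate 3 (6.17%) and 10 without 8 h replicate 3 (13.9%). In RV at 8 h it was 5, 4 and 5 without control replicate 1, 2 or 3 (14.2, 8.45 and 9.79% of all genes) and 7 without 8 h replicate 3 (11.2%). With replicate 3 of both stored groups left out together, 10 members were called in LV at 4 h (5.32% of all genes) and 10 at 8 h (5.77%). In RV, 9 members were then called at 4 h (13.0% of all genes) and 10 at 8 h (14.3%). Medians of the members' log2 fold changes were then 1.74 and 2.65 in LV and 1.96 and 3.64 in RV. Ifit2 was the member not called, with a log2 fold change of 1.01 (adjusted p = 0.3).

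**Figure D2:**
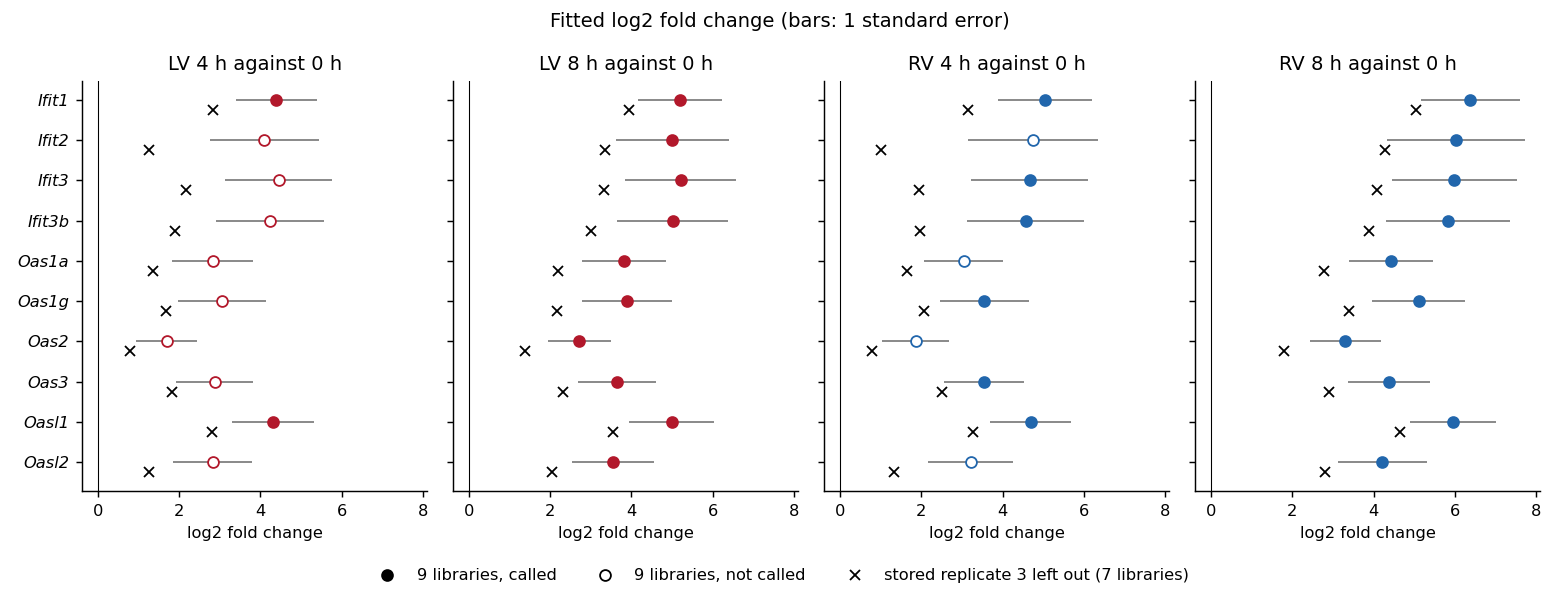
log2 fold change (± SE) of each of the 10 members against 0 h in LV and RV after 4 h and 8 h of storage, from edgeR. Filled points were called, and crosses give the value with replicate 3 of the stored groups left out, which was smaller for each member.

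Ifit1 (ENSMUSG00000034459.8) binds capped RNA that lacks methylation of its first nucleotides. In LV, replicates 1, 2 and 3 of Ifit1 stood at 7.72, 11.5 and 12.3 CPM at 0 h, 88.1, 60.4 and 511 CPM after 4 h and 123, 199 and 816 CPM after 8 h. In RV its levels were 6.285, 8.87 and 9.89 CPM at 0 h, 87.8, 59.0 and 664.5 CPM after 4 h and 154, 395 and 1472 CPM after 8 h. The lowest stored library of either ventricle was a replicate 2 after 4 h, and it lay above every control. Ifit1 rose in LV at 4 h (log2 fold change 4.39, SE 1.00, adjusted p = 0.0775) and at 8 h (log2 fold change 5.19, SE 1.03, adjusted p = 0.0339). It also rose in RV at 4 h (log2 fold change 5.04, SE 1.15, adjusted p = 0.0365) and at 8 h (log2 fold change 6.38, SE 1.22, adjusted p = 0.0111), the largest fold change of any member there. Ifit1 lost its 4 h call in LV without 0 h replicate 1, 2 or 3, 4 h replicate 1 or 3 or 8 h replicate 2 (adjusted p = 0.11 to 0.309). Ifit1 lost its 8 h call in LV without 0 h replicate 2 or 3 (adjusted p = 0.12 to 0.165). Ifit1 lost its 4 h call in RV without 0 h replicate 2 or 3 (adjusted p = 0.155 to 0.157). Ifit1 was called in RV at 8 h in 9 of 9 fits. Without replicate 3 of the stored groups its log2 fold changes were 2.83 (adjusted p = 0.00298) and 3.94 (adjusted p = 0.000291) in LV and 3.15 (adjusted p = 0.00303) and 5.04 (adjusted p = 0.000183) in RV.

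Ifit2 (ENSMUSG00000045932.12) binds RNA rich in A and U. In LV its replicates 1, 2 and 3 were at 13.1, 21.6 and 25.8 CPM at 0 h, 48.7, 47.8 and 935 CPM after 4 h and 149, 264 and 1523 CPM after 8 h. The RV libraries gave 8.565, 17.6 and 20.4 CPM at 0 h, 30.1, 31.7 and 1156 CPM after 4 h and 118, 488 and 2308 CPM after 8 h. No member had a wider gap at 4 h between replicate 3 and the other replicates, which lay at 47.8 and 48.7 CPM in LV and 30.1 and 31.7 CPM in RV, not far above the highest controls. Its log2 fold changes at 4 h were 4.10 ± 1.34 (adjusted p = 0.185) in LV and 4.74 ± 1.60 (adjusted p = 0.118) in RV, and neither was called. With the replicate block the RV value was 2.76 ± 0.90, adjusted p = 0.0964, which was called. Ifit2 rose at 8 h in LV (log2 fold change 5.01, SE 1.39, adjusted p = 0.0832) and in RV (log2 fold change 6.02, SE 1.70, adjusted p = 0.0472). Ifit2 gained a 4 h call in LV without 8 h replicate 3 (adjusted p = 0.0989). Ifit2 lost its 8 h call in LV without 0 h replicate 1, 2 or 3 or 8 h replicate 3 (adjusted p = 0.195 to 0.277). Ifit2 gained a 4 h call in RV without 8 h replicate 3 (adjusted p = 0.0744). Ifit2 lost its 8 h call in RV without 0 h replicate 1, 2 or 3 or 8 h replicate 3 (adjusted p = 0.122 to 0.157).

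Ifit3 (ENSMUSG00000074896.3) and Ifit3b (ENSMUSG00000062488.9) encode close relatives of Ifit1 and Ifit2 that lie in the same cluster. Ifit3 in LV stood at 5.87, 12.6 and 13.2 CPM at 0 h, 61.4, 32.5 and 599.7 CPM after 4 h and 91.8, 122 and 956 CPM after 8 h in replicates 1, 2 and 3. In RV, Ifit3 had 4.91, 8.97 and 14.4 CPM at 0 h, 47.95, 24.0 and 633 CPM after 4 h and 84.9, 233 and 1404 CPM after 8 h. In both ventricles 4 h replicate 2 was the lowest stored library, and it lay above the highest control. Ifit3 had a log2 fold change of 4.46 ± 1.31 (adjusted p = 0.148) in LV at 4 h, not called, and rose in LV at 8 h (log2 fold change 5.21, SE 1.36, adjusted p = 0.0716) and in RV at 4 h (log2 fold change 4.67, SE 1.44, adjusted p = 0.0932) and 8 h (log2 fold change 5.99, SE 1.53, adjusted p = 0.0338). Ifit3b ran from 2.21 to 3.98 CPM in the LV controls and from 1.37 to 3.59 CPM in the RV controls, and from 6.77 to 366.5 CPM over the 12 stored libraries. Its log2 fold changes were 4.23 ± 1.33 (adjusted p = 0.172) and 5.01 ± 1.38 (adjusted p = 0.08) in LV and 4.57 ± 1.44 (adjusted p = 0.0977) and 5.84 ± 1.52 (adjusted p = 0.0359) in RV, of which the first was not called. Ifit3 gained a 4 h call in LV without 8 h replicate 3 (adjusted p = 0.0638). Ifit3 lost its 8 h call in LV without 0 h replicate 1, 2 or 3 or 8 h replicate 3 (adjusted p = 0.175 to 0.251). Ifit3 lost its 4 h call in RV without 0 h replicate 1, 2 or 3 or 4 h replicate 1 or 3 (adjusted p = 0.116 to 0.368). Ifit3 lost its 8 h call in RV without 0 h replicate 1, 2 or 3 (adjusted p = 0.102 to 0.133). Ifit3b gained a 4 h call in LV without 8 h replicate 3 (adjusted p = 0.0712). Ifit3b lost its 8 h call in LV without 0 h replicate 1, 2 or 3 or 8 h replicate 3 (adjusted p = 0.193 to 0.263). Ifit3b lost its 4 h call in RV without 0 h replicate 1, 2 or 3, 4 h replicate 1 or 3 or 8 h replicate 2 (adjusted p = 0.102 to 0.389). Ifit3b lost its 8 h call in RV without 0 h replicate 1, 2 or 3 (adjusted p = 0.106 to 0.131).

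Ifit3 and Ifit3b share sequence, which makes the division of reads between them uncertain. Of the 31-base words in Ifit3 transcripts 61.8% also occur in another gene, all of them in Ifit3b, and of those in Ifit3b 55.2% are shared. Ifit3 held 72.6 to 81.3% of the pair's counts over the 18 libraries. Oas1a and Oas1g are the other such pair, with 68.8% and 55.1% of their words shared and Oas1a holding 67.0 to 84.8% of the pair's counts. Ifit1 shares 10.4% of its words, chiefly with Ifit1bl2, whereas Oas3 shares 2.26%, Oasl2 1.1%, Oasl1 0.112% and Ifit2 and Oas2 0.0%.

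Oas1a (ENSMUSG00000052776.10) encodes an active synthetase built from a single OAS unit. Its LV replicates 1, 2 and 3 measured 2.31, 4.05 and 3.83 CPM at 0 h, 9.545, 7.555 and 54.6 CPM after 4 h and 14.2, 16.7 and 112 CPM after 8 h. In RV, Oas1a was at 2.46, 2.98 and 3.85 CPM at 0 h, 9.59, 9.57 and 56.3 CPM after 4 h and 18.8, 23.7 and 152 CPM after 8 h. Stored replicates 1 and 2 lay close together in each group, between 7.56 and 23.7 CPM, and all controls lay at 4.05 CPM or less. At 4 h the log2 fold change of Oas1a was 2.82 ± 1.00 (adjusted p = 0.217) in LV and 3.05 ± 0.98 (adjusted p = 0.103) in RV, not called, and with the replicate block the RV value was 2.44 ± 0.47, adjusted p = 0.0198 and called. Oas1a rose at 8 h in LV (log2 fold change 3.82, SE 1.03, adjusted p = 0.0776) and in RV (log2 fold change 4.44, SE 1.03, adjusted p = 0.0229). Its close relative Oas1g (ENSMUSG00000066861.14) was at 0.439 to 1.56 CPM in the 6 controls and at 2.73 to 56.9 CPM in the 12 stored libraries. Oas1g had log2 fold changes of 3.05 ± 1.08 (adjusted p = 0.22) and 3.90 ± 1.11 (adjusted p = 0.0886) in LV and 3.56 ± 1.09 (adjusted p = 0.0906) and 5.11 ± 1.14 (adjusted p = 0.0195) in RV, all called but the first. Oas1a gained a 4 h call in LV without 8 h replicate 3 (adjusted p = 0.0768). Oas1a lost its 8 h call in LV without 0 h replicate 1, 2 or 3 or 8 h replicate 3 (adjusted p = 0.188 to 0.257). Oas1a gained a 4 h call in RV without 8 h replicate 1, 2 or 3 (adjusted p = 0.0293 to 0.0946). Oas1a lost its 8 h call in RV without 0 h replicate 2 (adjusted p = 0.102). Oas1g gained a 4 h call in LV without 8 h replicate 3 (adjusted p = 0.0775). Oas1g lost its 8 h call in LV without 0 h replicate 1, 2 or 3, 4 h replicate 1 or 8 h replicate 3 (adjusted p = 0.11 to 0.263). Oas1g lost its 4 h call in RV without 0 h replicate 1, 2 or 3 or 4 h replicate 1, 2 or 3 (adjusted p = 0.1 to 0.29). Oas1g was called in RV at 8 h in 9 of 9 fits.

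Oas2 (ENSMUSG00000032690.16) and Oas3 (ENSMUSG00000032661.9) encode the larger synthetases, built from repeated OAS units. For Oas2 in LV the replicates 1, 2 and 3 gave 8.96, 14.5 and 14.7 CPM at 0 h, 22.8, 20.9 and 79.7 CPM after 4 h and 36.2, 30.8 and 183.5 CPM after 8 h. In RV, Oas2 gave 7.31, 10.4 and 13.9 CPM at 0 h, 16.6, 19.3 and 77.2 CPM after 4 h and 37.97, 36.2 and 227 CPM after 8 h. As a ratio, the step from the highest control to the lowest stored library was the smallest of the 10 members in both ventricles, with 16.6 CPM in the lowest RV stored library beside 13.9 CPM in the highest RV control. Oas2 had the smallest log2 fold change of the 10 members in each of the 4 comparisons with 0 h: 1.70 ± 0.75 (adjusted p = 0.321) and 1.86 ± 0.83 (adjusted p = 0.232) at 4 h, not called, and 2.72 ± 0.78 (adjusted p = 0.0901) and 3.30 ± 0.87 (adjusted p = 0.0377) at 8 h, called. With the replicate block its RV value at 4 h was 1.44 ± 0.38, adjusted p = 0.0529 and called. Oas2 gained a 4 h call in LV in 0 of 9 fits. Oas2 lost its 8 h call in LV without 0 h replicate 1, 2 or 3, 4 h replicate 1 or 2 or 8 h replicate 3 (adjusted p = 0.107 to 0.269). Oas2 gained a 4 h call in RV without 8 h replicate 3 (adjusted p = 0.0718). Oas2 lost its 8 h call in RV without 0 h replicate 1, 2 or 3 or 8 h replicate 3 (adjusted p = 0.106 to 0.136).

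Oas3 was the scarcest member. Its LV replicates 1, 2 and 3 were at 0.227, 0.743 and 0.653 CPM at 0 h, 2.30, 1.38 and 7.94 CPM after 4 h and 3.18, 2.07 and 14.7 CPM after 8 h. The RV replicates were at 0.205, 0.677 and 0.229 CPM at 0 h, 2.41, 1.71 and 8.62 CPM after 4 h and 2.51, 3.07 and 16.7 CPM after 8 h. The 6 controls were at 0.743 CPM or less and the 12 stored libraries at 1.38 CPM or more. Oas3 passed the filter through its stored libraries and not on the 0 h libraries alone. Its tests are therefore listed, and no change is read from them. Oas3 was called in LV at 8 h (log2 fold change 3.66, SE 0.96, adjusted p = 0.0724) and in RV at 4 h (log2 fold change 3.55, SE 0.99, adjusted p = 0.0702) and 8 h (log2 fold change 4.38, SE 1.01, adjusted p = 0.0222). Its LV value at 4 h was 2.88 ± 0.95 (adjusted p = 0.187) and not called. Oas3 gained a 4 h call in LV without 8 h replicate 3 (adjusted p = 0.0709). Oas3 lost its 8 h call in LV without 0 h replicate 1, 2 or 3 or 8 h replicate 3 (adjusted p = 0.175 to 0.227). Oas3 lost its 4 h call in RV without 0 h replicate 1, 2 or 3 or 4 h replicate 1 or 3 (adjusted p = 0.11 to 0.254). Oas3 was called in RV at 8 h in 9 of 9 fits, from which no change is read, since stored libraries carried it through the filter.

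Oasl1 (ENSMUSG00000041827.15) encodes an OAS-like protein that holds back translation of Irf7 mRNA. Oasl1 in LV was at 4.98, 4.29 and 3.95 CPM at 0 h, 39.2, 22.5 and 200.5 CPM after 4 h and 51.15, 53.1 and 315 CPM after 8 h in replicates 1, 2 and 3. In RV, Oasl1 was at 5.29, 3.52 and 2.48 CPM at 0 h, 41.9, 30.5 and 216.5 CPM after 4 h and 75.6, 114.5 and 492 CPM after 8 h. Its 6 controls spanned 2.48 to 5.29 CPM, and unlike those of the other 9 members they were highest in replicate 1 of both ventricles. Oasl1 rose in LV at 4 h (log2 fold change 4.31, SE 1.01, adjusted p = 0.0843) and 8 h (log2 fold change 4.99, SE 1.04, adjusted p = 0.0395) and in RV at 4 h (log2 fold change 4.70, SE 1.00, adjusted p = 0.0292) and 8 h (log2 fold change 5.96, SE 1.06, adjusted p = 0.00853), with the lowest adjusted p of any member in RV. Oasl1 lost its 4 h call in LV without 0 h replicate 1, 2 or 3, 4 h replicate 1 or 3 or 8 h replicate 2 (adjusted p = 0.107 to 0.33). Oasl1 lost its 8 h call in LV without 0 h replicate 1, 2 or 3 (adjusted p = 0.101 to 0.184). Oasl1 lost its 4 h call in RV without 0 h replicate 2 or 3 (adjusted p = 0.138 to 0.147). Oasl1 was called in RV at 8 h in 9 of 9 fits.

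Oasl2 (ENSMUSG00000029561.17) encodes an OAS-like protein that still makes oligoadenylates. Replicates 1, 2 and 3 of Oasl2 in LV stood at 7.06, 13.3 and 15.1 CPM at 0 h, 30.3, 26.3 and 193 CPM after 4 h and 44.25, 54.1 and 315 CPM after 8 h. In RV they were 7.045, 10.1 and 14.9 CPM at 0 h, 27.2, 25.75 and 239.8 CPM after 4 h and 55.15, 94.4 and 426 CPM after 8 h. Stored replicates 1 and 2 lay between 25.75 and 94.4 CPM and the controls at 15.1 CPM or less. Its log2 fold changes at 4 h, 2.82 ± 0.98 (adjusted p = 0.209) in LV and 3.22 ± 1.05 (adjusted p = 0.107) in RV, were not called, and the RV value with the replicate block was 2.39 ± 0.48, adjusted p = 0.0218 and called. Oasl2 rose at 8 h in LV (log2 fold change 3.55, SE 1.01, adjusted p = 0.0888) and RV (log2 fold change 4.21, SE 1.09, adjusted p = 0.0354). Oasl2 gained a 4 h call in LV without 8 h replicate 3 (adjusted p = 0.0841). Oasl2 lost its 8 h call in LV without 0 h replicate 1, 2 or 3, 4 h replicate 1 or 8 h replicate 3 (adjusted p = 0.101 to 0.274). Oasl2 gained a 4 h call in RV without 8 h replicate 3 (adjusted p = 0.0505). Oasl2 lost its 8 h call in RV without 0 h replicate 1, 2 or 3 or 8 h replicate 3 (adjusted p = 0.101 to 0.134).

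**Figure D3:**
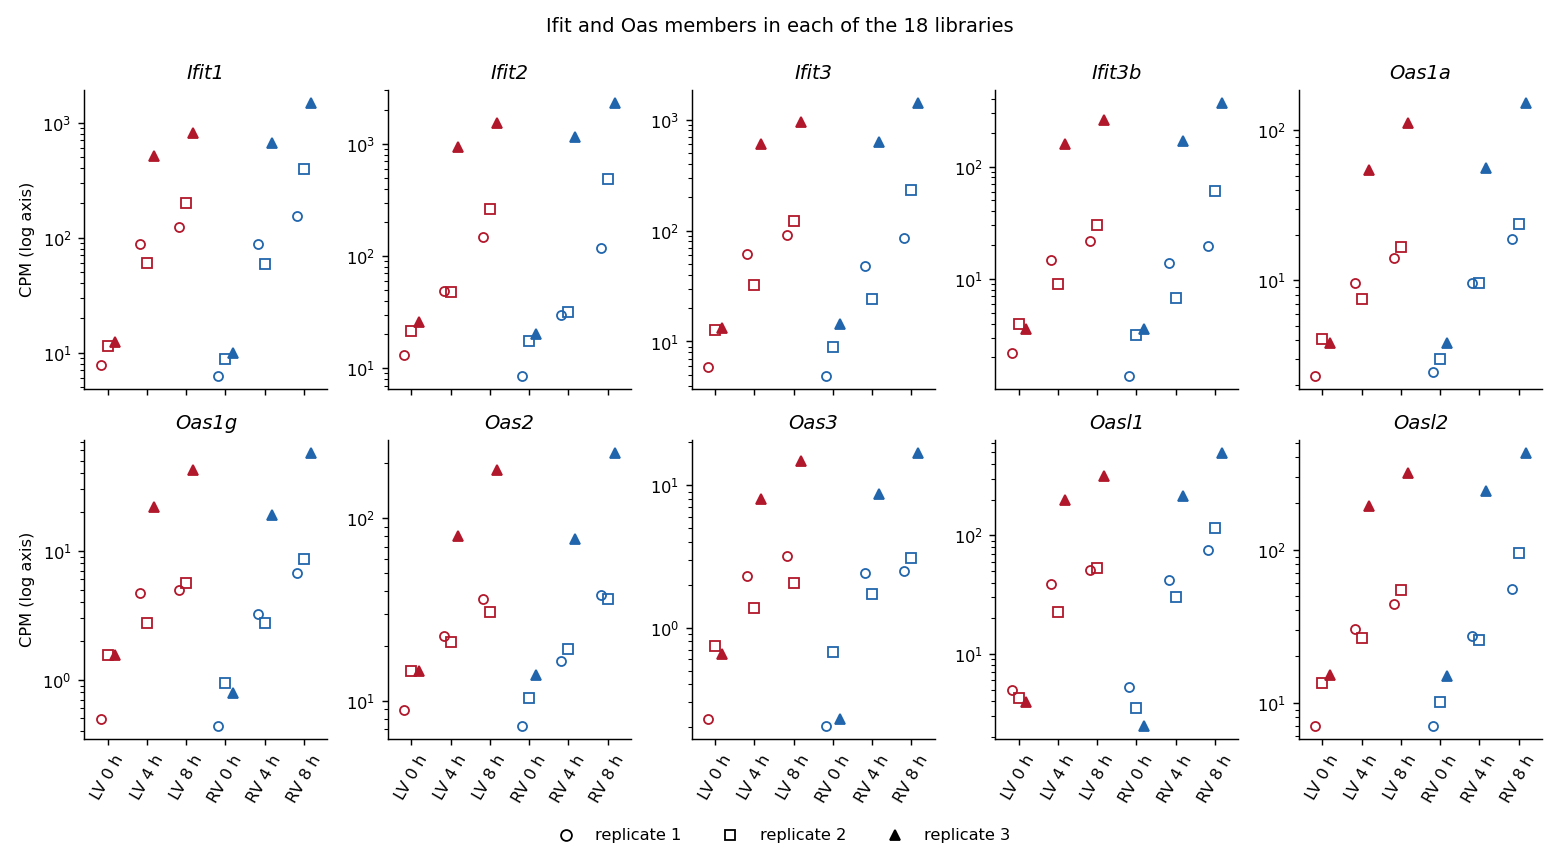
CPM of each of the 10 members in the 18 libraries on a log axis, by ventricle and storage time, with a marker for each replicate number. In each panel all stored libraries of a ventricle lie above its 3 controls, and replicate 3 is the highest of each stored group.

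Storage for 8 h was compared directly with 4 h. No member was called in LV or in RV by edgeR (0 of 10 each, and 0.0% of all genes in both), 0 members had an unadjusted p under 0.05 (8.1 and 6.57% of all genes), and DESeq2 called 0 in both (0.311 and 0.188%). Log2 fold changes lay between 0.68 (Oasl1) and 1.03 (Oas2) in LV, with adjusted p from 0.703 to 0.848, and between 0.83 (Oas3) and 1.56 (Oas1g) in RV, with adjusted p from 0.599 to 0.683. With the replicate number as a block, 0 of 10 members were called in LV (0.00687% of all genes) and 0 of 10 in RV (0.0% of all genes), and 0 and 7 members had an unadjusted p under 0.05, against 12.6 and 15.5% of all genes. Blocked log2 fold changes were 0.67 (Oas3) to 1.42 (Ifit2) in LV and 0.64 (Oas3) to 2.03 (Ifit2) in RV, with adjusted p from 0.411 to 0.588 and from 0.317 to 0.535. The 4 h and 8 h libraries overlapped for all 10 members in both ventricles. Every 8 h library was above every 4 h library for 5.38% of all genes tested in LV and 6.0% in RV. Within each replicate number the 8 h library was above the 4 h library for every member, in 30 of 30 pairs in LV and 30 of 30 in RV. Of all genes tested, 21.5% in LV and 23.1% in RV were higher at 8 h in all 3 numbers. The members followed each other, so the pairs amount to 3 numbers per ventricle. In LV all 10 members had a negative log2 fold change without 8 h replicate 3 (-0.29 for Oas2 to -1.23 for Ifit3b). In RV 9 members did (-0.02 for Oasl1 to -0.66 for Ifit3b), and Ifit1 was at 0.02. Without 4 h replicate 3 the values were 1.90 (Oas3) to 3.81 (Ifit2) in LV and 1.87 (Oas3) to 5.01 (Ifit2) in RV. With replicate 3 left out at both times, the median was 0.81 in LV, where 0 of 10 members and 0.143% of all genes were called, and 1.42 in RV, where 0 of 10 and 0.0136% were. At an unadjusted p under 0.05, 8 members then passed in LV, against 9.14% of all genes, and 9 in RV, against 5.75%.

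The ventricles were compared at each storage time. No member was called between LV and RV at 0 h (0.159% of all genes), at 4 h (0.0133%) or at 8 h (0.0331%), with edgeR, with DESeq2, or at an unadjusted p under 0.05 (0 of 10 in each). At 0 h, 4 h and 8 h, DESeq2 called 0.245, 0.0995 and 0.755% of the genes it fitted, and 3.21, 2.96 and 11.1% of all genes had an unadjusted p under 0.05 with edgeR. The median log2 difference of the members, LV minus RV, was 0.26 at 0 h, -0.11 at 4 h and -0.50 at 8 h. LV was the higher ventricle in 25 of 30 pairs of the same number at 0 h, in 15 of 30 at 4 h and in 4 of 30 at 8 h. No share over all genes is given for these pairs, so the counts are not read as particular to the members. By number, the median over the members was 0.204, 0.382 and 0.191 at 0 h, 0.121, 0.0311 and -0.107 at 4 h and -0.193, -0.845 and -0.47 at 8 h. Thus the sign was the same in all 3 numbers at 0 h and at 8 h and mixed at 4 h. With libraries of the same time and number treated as 1 heart, 0 members were called at 0 h (1.85% of all genes, and 3 members against 14.3% of all genes at an unadjusted p under 0.05) and 0 at 4 h (1.93% of all genes, and 0 members against 16.7%). In that fit 2 members were called at 8 h, where 8.78% of all genes were, and 8 members had an unadjusted p under 0.05 against 36.8% of all genes. They were Ifit1 (log2 difference -0.72, SE 0.12, adjusted p = 0.00248) and Oasl1 (-0.77, SE 0.12, adjusted p = 0.00166). In those fits, leaving out 8 h replicate 1 of both ventricles gave 6 members (5.62% of all genes) and leaving out 8 h replicate 2 gave 1 (9.77%).

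Whether the change from 0 h to 8 h differed between the ventricles was tested as an interaction. The fit without a block called 0 of 10 members and 0.0% of all genes, with 0 members at an unadjusted p under 0.05 (4.16% of all genes) and 0 by DESeq2 (0.0083%). Its median log2 difference over the members, LV change minus RV change, was -0.75, and over all genes tested 0.033. On simulated data this fit called none of the altered genes. Those data assumed that LV and RV of the same heart share part of their spread, and that spread was set, not taken from these libraries. The count of 0 is therefore not read either way. The heart was then fitted as a block, with libraries of the same time and number treated as 1 heart, a pairing that no label states. In that fit 9 members had an unadjusted p under 0.05, against 23.1% of all genes, and 4 members were called, against 5.71%. They were Ifit1 (-1.05, SE 0.19, adjusted p = 0.00725), Oas1g (-1.18, SE 0.22, adjusted p = 0.0102), Oasl1 (-1.01, SE 0.21, adjusted p = 0.0148) and Oasl2 (-0.66, SE 0.17, adjusted p = 0.0426), each with the larger change in RV. Without both 0 h libraries of replicate 3 the number of members was 6 (4.73% of all genes) and without those of 8 h replicate 1 it was 8 (3.76%). Without those of 8 h replicate 2 or of 0 h replicate 2 it was 3 (6.67 and 4.0%).

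In TPM, the scale that allows genes to be ordered, the order changed between controls and stored hearts. At 0 h Oasl2 led in both ventricles. It had 9.39 ± 3.37 TPM in LV and 8.10 ± 2.24 TPM in RV (mean ± SD, n = 3), and was above Ifit3 in 3 of 3 libraries each, though by less than the SD. At 8 h Ifit3 had the highest mean, 237.6 ± 289.4 TPM in LV and 337.4 ± 413.2 TPM in RV. In LV it was above Ifit2 in 3 of 3 libraries and above Ifit1 in 2 of 3 (not replicate 2), and in RV it was above Ifit1 in 1 of 3, replicate 3. Over all 18 libraries the means were Ifit3 152.8, Ifit2 108.5, Ifit1 104.1, Oasl2 58.5, Oasl1 54.0, Ifit3b 34.6, Oas1a 16.3, Oas2 14.5, Oas1g 10.9 and Oas3 1.02 TPM. Ifit3 was above Ifit2, Oas2 above Oas1g and Oas1g above Oas3 in 18 of 18 libraries. Other neighbours had no fixed order. Ifit2 was above Ifit1 in 9 of 18, Oas1a above Oas2 in 8, Ifit3b above Oas1a in 10, Ifit1 above Oasl2 in 12, Oasl2 above Oasl1 in 12 and Oasl1 above Ifit3b in 17. The summed TPM of the 4 Ifit members over that of the 6 Oas and Oasl members was 0.92, 1.06 and 1.14 in the LV controls and 0.745, 1.11 and 1.13 in the RV controls. After storage it was 1.57, 1.4 and 2.83 (4 h) and 1.87, 2.57 and 2.72 (8 h) in LV. In RV it was 1.4, 0.986 and 3.1 after 4 h and 1.42, 2.84 and 2.96 after 8 h. The ratio was thus above its controls in every stored library but RV 4 h replicate 2.

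Not all counts of a gene lay on transcripts annotated as coding. For Ifit1, Ifit2, Ifit3, Ifit3b and Oas1a all did (100%), for Oas2 95.9%, Oas3 95.7% and Oasl1 93.6%. Of the Oas1g counts only 14.1% lay on the coding transcript (4.26 to 24.0% over the libraries), 50.4% on a transcript annotated for nonsense-mediated decay and 35.5% on one with a retained intron. Of the Oasl2 counts 25.1% were on coding transcripts (18.4 to 47.1%), and 47.7% were on 1 transcript annotated for nonsense-mediated decay. Levels of Oas1g and Oasl2 as genes are therefore not levels of their coding RNA.

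In the GRCm38 genome the members sit in 3 clusters. The Ifit cluster spans 99.3 kb of chromosome 19 (34550694 to 34650009) between Lipa and Slc16a12. Its 6 coding genes are, in order, Ifit2 (34550694 to 34576419), Ifit3 (34583531 to 34588731), Ifit1bl1, Ifit3b (34607970 to 34613401), Ifit1bl2 and Ifit1 (34640871 to 34650009), with the 4 members on the plus strand and both others on the minus strand. Oas1a (120896256 to 120907521), Oas1g (120876142 to 120887613), Oas3 (120753098 to 120777661) and Oas2 (120730333 to 120749853) lie on the minus strand of chromosome 5 in a cluster of 9 coding genes and 191 kb between Dtx1 and Rph3a. Oasl2 (114896936 to 114912234) and Oasl1 (114923240 to 114937915) form a cluster of their own on the plus strand of chromosome 5, 41.0 kb long.

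**Figure D4:**
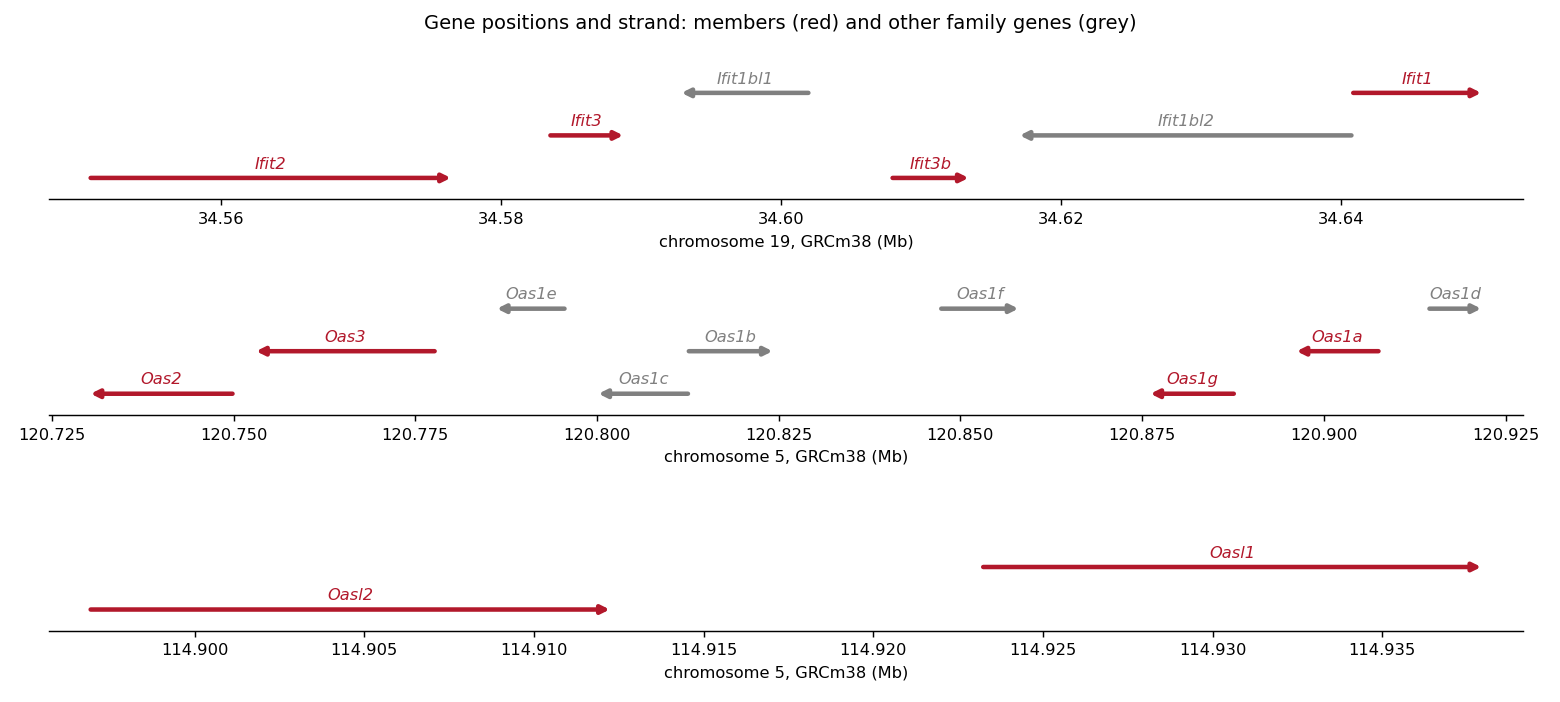
Map of the 3 clusters on chromosomes 19 and 5 (GRCm38 position on the horizontal axis), with the 10 members in red, other family genes that had counts in grey and arrows for the strand. Ifit1bl1 and Ifit1bl2 lie between members of the Ifit cluster.

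Relatives outside the list were looked at too. Of 9 paralogs looked up, 8 were in the files (Gm14446 was not, under that name) and 4 passed the filter. Oas1b, annotated as a polymorphic pseudogene, was at 2.29, 2.36 and 3.45 CPM at 0 h, 8.80, 6.20 and 30.3 CPM after 4 h and 8.57, 9.90 and 54.9 CPM after 8 h in LV replicates 1, 2 and 3. In RV it was at 1.96, 2.675 and 3.20 CPM at 0 h, 8.96, 7.31 and 37.95 CPM after 4 h and 11.8, 13.65 and 88.4 CPM after 8 h. As for the members, replicate 3 was the highest stored library. Oas1b was called at 8 h in LV (log2 fold change 3.18, SE 0.85, adjusted p = 0.0759) and RV (log2 fold change 3.91, SE 0.95, adjusted p = 0.0277), and in RV at 4 h only with the replicate block (2.36 ± 0.46, adjusted p = 0.021). Ifit1bl1 stood at 19.5 and 40.6 CPM in the LV and at 18.1 and 40.5 CPM in the RV stored replicates 3 (4 h and 8 h) and at 1.53 to 3.89 CPM in the other 14 libraries, and it was not called. Its neighbour Ifit1bl2 was at 0.434, 0 and 0.653 CPM in the LV controls, 0.653, 0 and 1.58 CPM in the LV 4 h libraries and 0.6475, 1.46 and 0 CPM in the LV 8 h libraries, which overlapped, and it was not called in LV. In RV it had 0 counts in all 3 controls, 1.05, 0 and 4.95 CPM in the RV 4 h libraries and 2.14, 1.91 and 5.30 CPM in the RV 8 h libraries. It passed the filter in RV only through stored libraries, and its estimated counts there took the values 0, 43, 64 and 143 alone. Its RV tests were thus against a group at 0, and no change is read from them. Oas1c was at 0.2685, 0.405 and 0.809 CPM at 0 h, 0.435, 0.289 and 1.03 CPM after 4 h and 1.08, 0.644 and 2.20 CPM after 8 h in LV and at 0.351, 0.576 and 0.947 CPM at 0 h, 0.341, 0.0778 and 1.00 CPM after 4 h and 0.9025, 0.622 and 2.30 CPM after 8 h in RV. Its stored libraries overlapped the controls in every comparison. It was not called at 4 h or 8 h in LV (0.25 ± 0.65 (adjusted p = 0.909) and 1.40 ± 0.63 (adjusted p = 0.217)) or in RV (-0.37 ± 0.80 (adjusted p = 0.888) and 1.07 ± 0.77 (adjusted p = 0.351)). Over the 18 libraries Oas1d had 7 counts, Oas1e 11, Oas1f 1 and Oas1h 0.

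Windows of 300 bases, from 250 before to 50 after the gene start, were taken from RefSeq (GRCm38.p6) because the members moved together, and 9 of the 10 had one (Oas2 did not). They were searched on both strands for GAAANNGAAA, the spaced GAAA repeat that IRF-type factors are known to bind. It occurred in the windows of 6 members, with 2 matches each in Ifit1, Ifit3, Ifit3b, Oas1a and Oas1g, 1 in Oas3 and 0 in Ifit2, Oasl1 and Oasl2. Of all 32851 windows 1131 (3.44%) held it, and 74 (0.225%) held 2 or more. Matches began at bases -104 and -85 from the start in Ifit1, -156 and -122 in Ifit3, -188 and -154 in Ifit3b, -20 and -14 in Oas1a, -18 and -12 in Oas1g and -75 in Oas3. The 5 windows with 2 matches are shown because the 3 Ifit windows carry the same pair of 10-base words, equally spaced in Ifit3 and Ifit3b and closer together in Ifit1. Both Oas1 windows also share a pair of words, which overlap. Capitals mark the matches, and each sequence runs 5′ to 3′ along the gene's strand: Ifit1 at chr19:34640639-34640938 (+), Ifit3 at chr19:34583279-34583578 (+), Ifit3b at chr19:34607707-34608006 (+), Oas1a at chr5:120907476-120907775 (-) and Oas1g at chr5:120887564-120887863 (-). A match describes letters only, and the Ifit1 window overlaps that of Ifit1bl2 on the other strand.
Ifit1: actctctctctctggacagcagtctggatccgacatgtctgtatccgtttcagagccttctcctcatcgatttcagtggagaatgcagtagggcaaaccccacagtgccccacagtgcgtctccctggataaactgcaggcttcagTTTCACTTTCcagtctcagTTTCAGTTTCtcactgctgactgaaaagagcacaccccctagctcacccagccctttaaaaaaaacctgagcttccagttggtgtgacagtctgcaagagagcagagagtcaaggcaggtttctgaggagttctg
Ifit3: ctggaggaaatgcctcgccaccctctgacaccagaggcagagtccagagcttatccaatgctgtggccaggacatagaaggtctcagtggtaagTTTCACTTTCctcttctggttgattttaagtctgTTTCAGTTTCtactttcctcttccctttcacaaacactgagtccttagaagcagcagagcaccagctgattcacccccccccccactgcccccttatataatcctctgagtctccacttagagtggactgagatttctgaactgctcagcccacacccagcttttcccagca
Ifit3b: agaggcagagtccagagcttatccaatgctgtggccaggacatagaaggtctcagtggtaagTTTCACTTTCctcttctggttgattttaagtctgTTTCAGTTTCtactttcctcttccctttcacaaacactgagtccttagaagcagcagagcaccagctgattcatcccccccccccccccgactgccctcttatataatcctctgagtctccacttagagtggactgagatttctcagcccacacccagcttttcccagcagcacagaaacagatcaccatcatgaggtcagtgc
Oas1a: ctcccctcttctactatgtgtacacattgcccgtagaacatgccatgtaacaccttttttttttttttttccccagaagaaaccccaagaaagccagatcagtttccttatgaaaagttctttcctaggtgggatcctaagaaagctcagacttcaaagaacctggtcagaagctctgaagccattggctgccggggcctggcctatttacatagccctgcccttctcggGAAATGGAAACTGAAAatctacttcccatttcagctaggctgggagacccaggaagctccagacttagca
Oas1g: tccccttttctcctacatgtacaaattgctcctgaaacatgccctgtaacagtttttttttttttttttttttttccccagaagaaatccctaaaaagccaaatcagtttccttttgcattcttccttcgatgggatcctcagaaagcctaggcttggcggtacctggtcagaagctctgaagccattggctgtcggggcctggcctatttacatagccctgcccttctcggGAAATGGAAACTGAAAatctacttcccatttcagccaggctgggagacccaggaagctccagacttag

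Among 20 interferon ligands only Ifnb1 passed the filter, and the next most abundant, Ifng, had a mean of 0.0815 TPM. Ifnb1, interferon beta, stood at 1.38, 0.135 and 0.0933 CPM at 0 h, 5.22, 3.215 and 1.18 CPM after 4 h and 1.85, 1.36 and 0.718 CPM after 8 h in LV replicates 1, 2 and 3. In RV it stood at 0.994, 0.169 and 0.03265 CPM at 0 h, 4.82, 2.26 and 0.173 CPM after 4 h and 2.71, 1.91 and 0.778 CPM after 8 h. Replicate 3, the highest stored library for every member, was the lowest of its group for Ifnb1 in all 6 groups, and the 0 h replicate 1 was the highest control. Ifnb1 was not called, with log2 fold changes of 2.48 ± 0.88 (adjusted p = 0.22) and 1.20 ± 0.89 (adjusted p = 0.433) in LV and 2.58 ± 1.12 (adjusted p = 0.221) and 2.13 ± 1.13 (adjusted p = 0.223) in RV. With the replicate block the RV values were 2.59 ± 0.62, adjusted p = 0.0399 at 4 h and 2.66 ± 0.64, adjusted p = 0.026 at 8 h, both called.

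Interferon receptors and JAK kinases stand at the head of the response. Of 9 such genes 1 and 3 were called upward in LV at 4 h and 8 h and 2 and 4 in RV, and 0 were called downward. The medians of their log2 fold changes were 0.02, 0.20, 0.26 and 0.66. The 4 most abundant by TPM were Il10rb, Ifngr2, Jak1 and Ifngr1, of which Jak1 rose in RV at 8 h (log2 fold change 0.73, SE 0.23, adjusted p = 0.0655) and Ifngr1 rose at 8 h in LV (log2 fold change 0.81, SE 0.21, adjusted p = 0.0651) and in RV (log2 fold change 0.80, SE 0.27, adjusted p = 0.0792). Jak2, called in all 4 comparisons, and Ifnar2, called in all but LV at 4 h, are named after their values were seen.

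Factors of the STAT and IRF families carry the signal to the genes. Of 8 such factors 2 and 5 were called upward in RV at 4 h and 8 h, and 4 and 6 with the replicate block. Irf8 was called in every comparison with 0 h, from 1.40 ± 0.32 (adjusted p = 0.0797) in LV at 4 h to 2.79 ± 0.38 (adjusted p = 0.00328) in RV at 8 h. Irf7, which amplifies interferon production, had a log2 fold change at 8 h of 3.72 ± 1.01 (adjusted p = 0.0788) in LV and 4.62 ± 1.10 (adjusted p = 0.0251) in RV, both called. Irf9, a DNA-binding partner of STAT factors, was at 2.22 ± 0.61 (adjusted p = 0.08) and 2.87 ± 0.58 (adjusted p = 0.0138) at 8 h and at 1.99 ± 0.56 (adjusted p = 0.071) in RV at 4 h, all called. Stat2 was called at 8 h in LV (log2 fold change 2.45, SE 0.73, adjusted p = 0.0982) and RV (log2 fold change 3.12, SE 0.75, adjusted p = 0.026), as was Irf1 (log2 fold change 1.73, SE 0.45, adjusted p = 0.0716 in LV and log2 fold change 2.18, SE 0.60, adjusted p = 0.043 in RV). Irf2 (1.30 ± 0.62 (adjusted p = 0.248) in LV and 1.63 ± 0.69 (adjusted p = 0.146) in RV) and Irf3 (-0.15 ± 0.16 (adjusted p = 0.601) and -0.01 ± 0.19 (adjusted p = 0.968)) were not called at 8 h.

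Negative regulators were called upward in 3, 3, 3 and 5 of 7 cases in LV at 4 h and 8 h and RV at 4 h and 8 h. With the replicate block 4 were called in RV at 4 h. The medians of their log2 fold changes were 1.03, 0.96, 1.44 and 1.80. Socs3, which blocks JAK kinases, had 1.83 ± 0.39 (adjusted p = 0.0659) and 1.63 ± 0.39 (adjusted p = 0.0554) in LV and 2.06 ± 0.35 (adjusted p = 0.0135) and 3.02 ± 0.36 (adjusted p = 0.00179) in RV, all called. Ptpn2 was called in the same 4 comparisons, with log2 fold changes of 0.96 to 1.80. Usp18, which blocks signalling at the receptor, was called in RV at 8 h (log2 fold change 5.10, SE 1.36, adjusted p = 0.0388) and not in LV at 8 h (log2 fold change 4.28, SE 1.31, adjusted p = 0.105). Ptpn11 was called in none of the 4, with values from -0.14 to 0.26.

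Of 12 RNA and DNA sensors 1 and 7 were called upward in LV at 4 h and 8 h and 5 and 9 in RV (8 in RV at 4 h with the replicate block), and 0 downward without the block. Median log2 fold changes were 1.85, 2.65, 2.33 and 3.50. The RNA helicase Ifih1 was called in LV at 8 h (log2 fold change 3.32, SE 0.78, adjusted p = 0.053) and in RV at 4 h (log2 fold change 3.07, SE 0.74, adjusted p = 0.0445) and 8 h (log2 fold change 4.04, SE 0.78, adjusted p = 0.0113). Ddx58, the other helicase, was called at 8 h in LV (log2 fold change 2.66, SE 0.77, adjusted p = 0.0931) and RV (log2 fold change 3.37, SE 0.84, adjusted p = 0.0303). The kinase Eif2ak2 was called in RV at 8 h (log2 fold change 3.63, SE 1.02, adjusted p = 0.0468) and not in LV at 8 h (log2 fold change 2.80, SE 0.87, adjusted p = 0.108). Mavs, the adaptor of both helicases, was not called, with log2 fold changes from -0.49 to -0.09. With the replicate block it was called downward in RV at 8 h (-0.60 ± 0.23, adjusted p = 0.0977).

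Pde12, a phosphodiesterase that degrades the product of the OAS enzymes, was called in all 4 comparisons, with 1.13 ± 0.25 (adjusted p = 0.0765) and 1.38 ± 0.26 (adjusted p = 0.0277) in LV and 1.502 ± 0.30 (adjusted p = 0.0252) and 2.46 ± 0.31 (adjusted p = 0.00226) in RV. Abce1, also listed in that pathway, had log2 fold changes of 0.22 to 0.46 and Enpp1 of 0.12 to 0.46, and neither was called, since no fold change was over 1.5.

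Of 22 other interferon-induced genes 2 and 13 were called upward in LV at 4 h and 8 h and 8 and 20 in RV (16 in RV at 4 h with the replicate block), with 0 downward. Their median log2 fold changes were 2.58, 3.44, 2.96 and 4.13, below the medians of the Ifit and Oas members in the same comparisons, a difference that was not tested. Among the 4 most abundant, Cxcl10, Ifitm3, Isg15 and Rsad2, the ubiquitin-like Isg15 had 3.75 ± 0.91 (adjusted p = 0.0915) and 4.51 ± 0.94 (adjusted p = 0.039) in LV and 4.13 ± 0.94 (adjusted p = 0.0359) and 5.59 ± 1.00 (adjusted p = 0.00869) in RV, all called. Ifitm3 was called in LV at 8 h (log2 fold change 2.26, SE 0.49, adjusted p = 0.0432) and in RV at 4 h (log2 fold change 1.84, SE 0.49, adjusted p = 0.06) and 8 h (log2 fold change 2.901, SE 0.51, adjusted p = 0.00821).

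The members followed each other across libraries. Pearson's r of a member's log2 CPM with the mean of the other 9 was 0.962 (Oasl1) to 0.995 (Ifit3) over the 18 libraries, which share storage groups and the pattern of replicate 3. The 8 genes outside both families most like the members' mean log2 CPM were Ifi206 and Mx2 (r = 0.997 each), Irf7 and Parp14 (0.996 each), Rsad2 (0.995) and Slfn8, Irgm1 and Zbp1 (0.994 each), over n = 18 libraries. Over the n = 14 libraries without stored replicate 3, r was 0.993, 0.994, 0.994, 0.989, 0.989, 0.988, 0.988 and 0.985 in that order. Mx2 had log2 fold changes at 8 h of 5.13 ± 1.28 (adjusted p = 0.0629) in LV and 6.31 ± 1.39 (adjusted p = 0.019) in RV, and Zbp1 of 4.84 ± 1.33 (adjusted p = 0.0803) and 5.73 ± 1.37 (adjusted p = 0.0257), all called. These 8 genes were picked by their r with the members in the same libraries. Their calls and their r over 14 libraries are therefore not separate results.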

How the data were processed

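RNA-seq of 18 libraries was reanalysed from the deposited transcript tables. The submitters' methods name kallisto, with the GRCm38 reference, as the source of the deposited estimated counts and of the deposited TPM, the authors' 2 units. Transcripts were matched to genes here with the GENCODE M21 annotation (GRCm38). The deposited tables also give transcript lengths and effective lengths (other). Of 111462 transcripts 110203 matched a gene and 1259 did not, and the latter held 0.31 to 0.383% of counts. Estimated counts were added over the transcripts of a gene and rounded, and TPM values were added. No 2 libraries were identical (highest r within a group 0.9841).

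Genes were filtered with filterByExpr and normalized with TMM, and edgeR 4.0.16 (R 4.3.3) fitted quasi-likelihood models, 1 for each ventricle (14564 genes tested in LV, 14622 in RV) and 1 for the ventricles together (15093 genes). Adjusted p-values are Benjamini-Hochberg over all genes tested, and CPM on the log scale used a prior count of 2. The alternatives were DESeq2 1.42.0, RLE size factors, offsets from effective lengths, no filter, mitochondrial genes left out, Y-linked expression as a covariate, paralog pairs added, other thresholds, other sets of libraries, a replicate block and each library or heart left out. The fits were tested on simulated data: storage comparisons recovered the altered genes, and the unblocked test of a difference in change between ventricles called none of those altered. Other tools were limma 3.58.1, Python 3.11.15, pandas 2.3.3, numpy 2.4.6 and matplotlib 3.10.9.

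The replicate number comes from the labels, which do not say what it links. Residuals of libraries with the same number were compared after group means were removed: r was 0.33 to 0.7 between LV and RV of a storage time, 0.33 to 0.57 between 4 h and 8 h of a ventricle, 0.11 to 0.28 between RV controls and stored RV, and -0.019 to 0.26 between LV controls and stored LV, where not every sample correlated best with its own number. Each comparison was first fitted without a block. In all but the LV comparisons with 0 h, the report also gives members' values with the number as a block where they change a call.

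Named genes were the 10 members, their paralogs with counts, the 4 most abundant genes of each pathway list (more of the STAT and IRF and of the oligoadenylate pathway lists, some of whose results are not reported here) and the 8 genes most correlated with the members' mean. The members and lists were chosen with earlier results of these data known. Library totals cover counting error only, and 3 replicates per group limit the precision of each value. Library kit and mouse age differ between the labels and the methods, and the labels' age is given.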

Additional observations from a re-analysis of the deposited data

Results flagged for a closer look

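By the interaction test with the heart as a block, 4 members were called for a different change from 0 h to 8 h in LV and RV. The block treats libraries of the same time and number as 1 heart, a pairing that no label states. In that fit 5.71% of all genes were called. With 1 heart left out the number ran from 3 (without 0 h or 8 h replicate 2, 4.0 and 6.67% of all genes) to 8 (without 8 h replicate 1, 3.76%). The log2 difference, LV change minus RV change, was -1.05 for Ifit1, -1.18 for Oas1g, -1.01 for Oasl1 and -0.66 for Oasl2. Without the block the test called 0 of 10 members and 0.0% of all genes. On simulated data, which assumed the pairing and a set spread, the unblocked test called none of the altered genes. Its count of 0 is not read either way.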

How the results depend on the processing

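Members called in LV at 4 h numbered 2 (2.79% of all genes), and 0 at an adjusted p under 0.05 and 5 with DESeq2 (4.0%). They numbered 8 with the Y-linked covariate, 8 with the replicate block (662 of 14564 genes tested) and 10 with stored replicate 3 left out (5.32%), chosen after seeing the data. With 1 library left out they ranged from 0 to 9. In LV at 8 h the 10 members became 2 at an adjusted p under 0.05 and 6 with DESeq2. They remained 10 in number with the block (1540 of 14564 genes tested) and ranged from 0 to 10 with 1 library left out. In RV at 4 h the 6 members became 2 at an adjusted p under 0.05 and 10 with the block, with a range of 0 to 10. In RV at 8 h the range was 4 to 10. Shares of all genes called are not given for the threshold of 0.05 or the Y-linked covariate. Those counts are not read as particular to the members. With the LV block, 18.8 and 28.8% of all genes had an unadjusted p under 0.05 at 4 h and 8 h. Without it 15.6 and 23.3% did. DESeq2 gave no adjusted p for 4 members in LV. Otherwise the cause was not tested.

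Between LV and RV with the heart as a block, 2 members were called at 8 h (8.78% of all genes). Leaving out hearts, also chosen after seeing the data, gave 2 without each heart of 0 h or 4 h or 8 h replicate 3 (8.39 to 10.3% of all genes). It gave 6 without 8 h replicate 1 (5.62%) and 1 without 8 h replicate 2 (9.77%). At 0 h the block called 0 (1.85% of all genes), and 1 without 4 h replicate 1 (1.64%) and 1 without 8 h replicate 3 (2.52%). In the change from 0 h to 8 h the block called 4 (5.71% of all genes). Without 0 h replicates 1, 2 and 3 in turn it called 5, 3 and 6 (3.55, 4.0 and 4.73%). Without each 4 h replicate it called 4 (5.21, 5.11 and 5.31%). Without 8 h replicates 1, 2 and 3 it called 8, 3 and 4 (3.76, 6.67 and 7.53%). In comparisons of all 18 libraries and of each ventricle, the block changed no other count of members called. The median LV minus RV difference ranged from 0.21 to 0.38 at 0 h and from -0.12 to 0.14 at 4 h with a heart left out. At 4 h it was 0.0202 with the block, and with hearts also left out 0.0235, 0.0231 and 0.0244 (0 h replicates 1, 2 and 3), 0.159 (4 h replicate 3) and 0.0219 and 0.0205 (8 h replicates 1 and 2). The blocked values without 4 h replicate 1, 4 h replicate 2 or 8 h replicate 3 are not listed here. The cause was not tested.

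The log2 fold change at 8 h against 4 h changed sign with 1 library left out, always 8 h replicate 3. In LV the ranges were -0.45 to 2.42 (Ifit1), -0.73 to 3.81 (Ifit2), -1.12 to 3.13 (Ifit3), -1.23 to 3.19 (Ifit3b), -0.63 to 2.54 (Oas1a), -0.86 to 2.29 (Oas1g), -0.29 to 1.997 (Oas2), -0.56 to 1.90 (Oas3), -0.75 to 2.24 (Oasl1) and -0.76 to 2.35 (Oasl2). In RV they were -0.42 to 5.01 (Ifit2), -0.57 to 4.03 (Ifit3), -0.66 to 3.87 (Ifit3b), -0.25 to 2.79 (Oas1a), -0.13 to 3.03 (Oas1g), -0.0277 to 2.52 (Oas2), -0.61 to 1.87 (Oas3), -0.0237 to 2.68 (Oasl1) and -0.39 to 2.89 (Oasl2).

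Of 708 single-member values in the 6 comparisons of storage times (those between ventricles not counted) under the alternatives that kept every library or left out several, 0 changed direction, 23 lost a call and 43 gained one. Of 540 such values with 1 library left out, 19 changed direction, 98 lost a call and 13 gained one. All alternatives were run. Depth limits Oas3 most, which the 0 h libraries alone would not have passed through the filter. The limits lie in 3 libraries per group, in replicate 3 of the stored groups, which also differs in Y-linked expression, in the shared reads of paralog pairs, in bulk tissue and in controls shared by 4 h and 8 h.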
